A study of Mus musculus with 10 samples.

Results

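The mTOR complexes, the proteins that hold them in check and a repressor they act on were followed in embryonic mouse hearts through 10 genes: Mtor, Rptor, Rictor, Akt1s1, Tsc1, Tsc2, Rheb, Ddit4, Sesn2 and Eif4ebp1. They were chosen by name, and every probe set whose annotation gives exactly 1 symbol, that of one of these genes, was taken. This gave 25 probe sets for the 10 genes, of 45101 probe sets and 18193 genes on the arrays. In hearts heterozygous for the loss of Hccs, the brake gene Sesn2 was 1.78-fold higher than in control hearts. None of the other 9 genes passed the test, and Ddit4, the other stress brake, stood at -0.16 on the log2 scale (knockout minus control).

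The 5 knockout pools held RNA from hearts of female embryos, 13.5 days post coitum, heterozygous for a heart-restricted Hccs knockout. The 5 control pools held RNA from hearts of female littermates of the same stage. Each array carried 1 pool of 4 to 5 whole hearts. The Cre line behind the knockout and the alleles carried by the controls are not stated in the sources used here. Hccs encodes holocytochrome c synthase, the mitochondrial enzyme that attaches haem to cytochrome c. It lies on the X chromosome, and since 1 X is silenced in each cell, the heart of a heterozygous female is a mosaic of cells that use the intact copy and cells that use the deleted one. Every value below is therefore an average over both kinds of cell, and fewer cells of a type and less RNA per cell cannot be told apart. Nothing in the sources says which pools share litters, so p-values measure the spread between these pools only.

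The kinase mTOR works in a pair of complexes. With Raptor (Rptor) it forms mTORC1, which drives protein synthesis and growth when amino acids and growth factors are at hand, and with Rictor it forms mTORC2, which phosphorylates Akt. PRAS40 (Akt1s1) sits on mTORC1 as an inhibitor until Akt phosphorylates it. The small GTPase Rheb switches mTORC1 on at the lysosome, and the tuberous sclerosis complex of Tsc1 and Tsc2 turns Rheb off. REDD1 (Ddit4) restrains mTORC1 through that complex under hypoxia, glucocorticoids or energy stress, and Sestrin2 (Sesn2), a leucine sensor, restrains it by binding GATOR2 when leucine is scarce. The translation repressor 4E-BP1 (Eif4ebp1) holds the cap-binding factor eIF4E until mTORC1 phosphorylates it. Much of this circuit runs on phosphorylation and binding, which arrays do not read: the values are transcript levels.

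Signals are given as log2 probe set signals, so a difference of 1 is a doubling, and a log2 change is the knockout mean minus the control mean. The middle probe set of an array stood between 3.65 and 3.76. Since all hearts were female, Y-linked genes give levels without their own transcripts, and these levels differed between genes. Uty read 3.78 in knockout pools and 3.66 in control pools, Kdm5d 2.70 and 2.67, and Eif2s3y 2.94 and 2.86. Hccs itself read 10.81, 10.73, 10.90, 10.57 and 10.39 in knockout pools 1 to 5, against 11.11, 11.31, 11.28, 11.20 and 11.25 in control pools 1 to 5. The groups did not overlap, and the difference of -0.55 had an exact permutation p of 0.00794, the smallest that 5 against 5 allows. These values are of the brighter Hccs probe set, which was called (limma adjusted p = 0.0225 over all genes). The dimmer one differed by -0.40, also without overlap (exact permutation p = 0.00794), but was not called (limma adjusted p = 0.105 over all probe sets). An 18S ribosomal RNA control of the arrays averaged 8.17 ± 0.35 in knockout pools and 10.05 ± 1.25 in control pools (SD, n = 5 each; exact permutation p = 0.0238). Control pool 3 stood apart from the other controls in this measure, at 8.06. The neuronal gene Tubb3 was also highest there, at 8.02, against 3.12 to 3.92 in knockout pools and 3.19 to 5.30 in the other controls. The part of either measure in the results below was not tested. For Sesn2 and the named genes of the pathway lists, limma values without that pool are given where they change the gene's call.

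Sesn2 was the member that differed. Its brighter probe set read 5.79, 5.60, 5.41, 5.57 and 4.82 in knockout pools 1 to 5, against 4.58, 4.61, 4.56, 4.65 and 4.61 in control pools 1 to 5. The 5 control pools lay within 0.1 of each other, every knockout pool lay above them, and knockout pool 5 came closest. The knockout mean was 0.84 log2 units higher (SE 0.15, 95% interval 0.49 to 1.18) with a limma p of 0.0289 adjusted over 18193 genes. On the linear scale that is 1.78-fold, with an interval of 1.41 to 2.26. The second probe set of Sesn2 gave the same picture, with 6.10, 5.40, 5.25, 5.40 and 5.01 in knockout pools, against 4.33, 4.54, 4.30, 4.44 and 4.54 in control pools. It differed by 1.0 (SE 0.17), with a limma p of 0.0342 adjusted over all 45037 probe sets, against 0.0412 for the brighter one in the same table. Sesn2 was a dim gene: its mean level lay at percentile 43.2 of all genes, about 1 log2 unit above Uty in control hearts, and at such levels a fold change may be compressed.

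The call on Sesn2 depended on which arrays were used. With 1 array left out in turn, the log2 change stayed between 0.75 and 0.99, and the limma adjusted p was under 0.05 in 3 of the 10 fits. It was 0.0246 without knockout pool 1, 0.00133 without knockout pool 5 and 0.0475 without control pool 5. It was 0.0676, 0.0600 and 0.0709 without knockout pools 2, 3 and 4, and 0.0654, 0.0613, 0.0655 and 0.0583 without control pools 1, 2, 3 and 4. In the fits that lost the call, calls over all genes also dropped, to between 105 and 177 from 469 with all arrays. The unadjusted limma p of Sesn2 was 0.00086 to 0.0012 in those fits, against 0.00031 with all arrays.

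**Figure D1:**
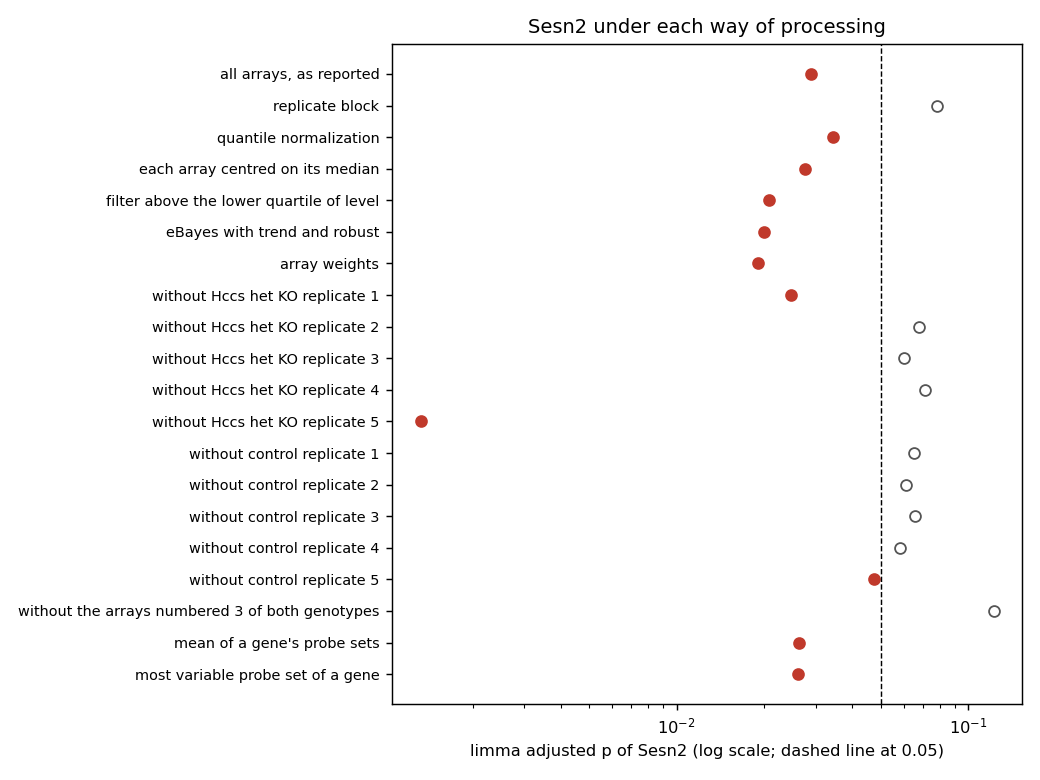
Limma adjusted p of Sesn2 (horizontal log axis) under each way of processing the values, 1 line for each, with a dashed line at 0.05 and filled points below it. The points run from 0.00133 to 0.122, and 7 of the 10 fits with 1 array left out lie right of the dashed line.

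The sequences upstream of Sesn2 and Ddit4 are shown because these are the stress-induced brakes, and only one of the pair was called. Each is the 250 bases before the gene's start, 5′ to 3′ on the gene's own strand, from RefSeq on assembly GRCm38.p6: chr4:132510457-132510706 (minus strand) for Sesn2 and chr10:59951771-59952020 (minus strand) for Ddit4. Capitals mark matches, on either strand, to 4 motifs. The composite element read by C/EBP and ATF4 factors was searched as TGATGNAA. The core shared by hypoxia and E-box elements was searched as ACGTG. The CCAAT box was searched by those letters, and the Sp1 or GC box as GGGCGG. No motif overlapped another in these windows.
Sesn2: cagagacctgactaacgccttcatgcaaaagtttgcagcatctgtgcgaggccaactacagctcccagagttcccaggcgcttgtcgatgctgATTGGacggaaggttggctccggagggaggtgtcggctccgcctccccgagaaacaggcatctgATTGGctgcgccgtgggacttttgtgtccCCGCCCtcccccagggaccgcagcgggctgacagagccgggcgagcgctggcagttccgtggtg
Ddit4: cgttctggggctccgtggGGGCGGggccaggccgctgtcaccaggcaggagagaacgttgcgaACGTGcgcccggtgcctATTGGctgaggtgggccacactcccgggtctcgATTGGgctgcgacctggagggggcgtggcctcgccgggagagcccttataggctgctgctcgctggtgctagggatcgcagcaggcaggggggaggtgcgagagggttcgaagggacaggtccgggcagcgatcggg
The Sesn2 window held 2 CCAAT boxes and 1 GC box, with no match to the hypoxia core. The Ddit4 window held the same counts of both boxes and 1 hypoxia core. The composite element occurred in none of the 9 members' windows that the table holds, and in 3.45% of all 32851 windows of that length. The hypoxia core occurred in 16.6% of them, the CCAAT box in 33.8% and the GC box in 32.7%. A match is a stretch of letters and not a bound site, and these windows leave out introns and distal elements.

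Ddit4, the other stress brake, was a well-expressed gene. It read 9.53, 9.15, 9.56, 9.33 and 9.77 in knockout pools 1 to 5, against 9.83, 9.62, 9.75, 9.41 and 9.54 in control pools 1 to 5. The groups overlapped, and the log2 change was -0.16 (SE 0.12; limma adjusted p = 0.465). Its 95% interval ran from -0.43 to 0.11, that is 0.742-fold to 1.08-fold, and the interval of Sesn2 began at 1.41-fold.

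**Figure D2:**
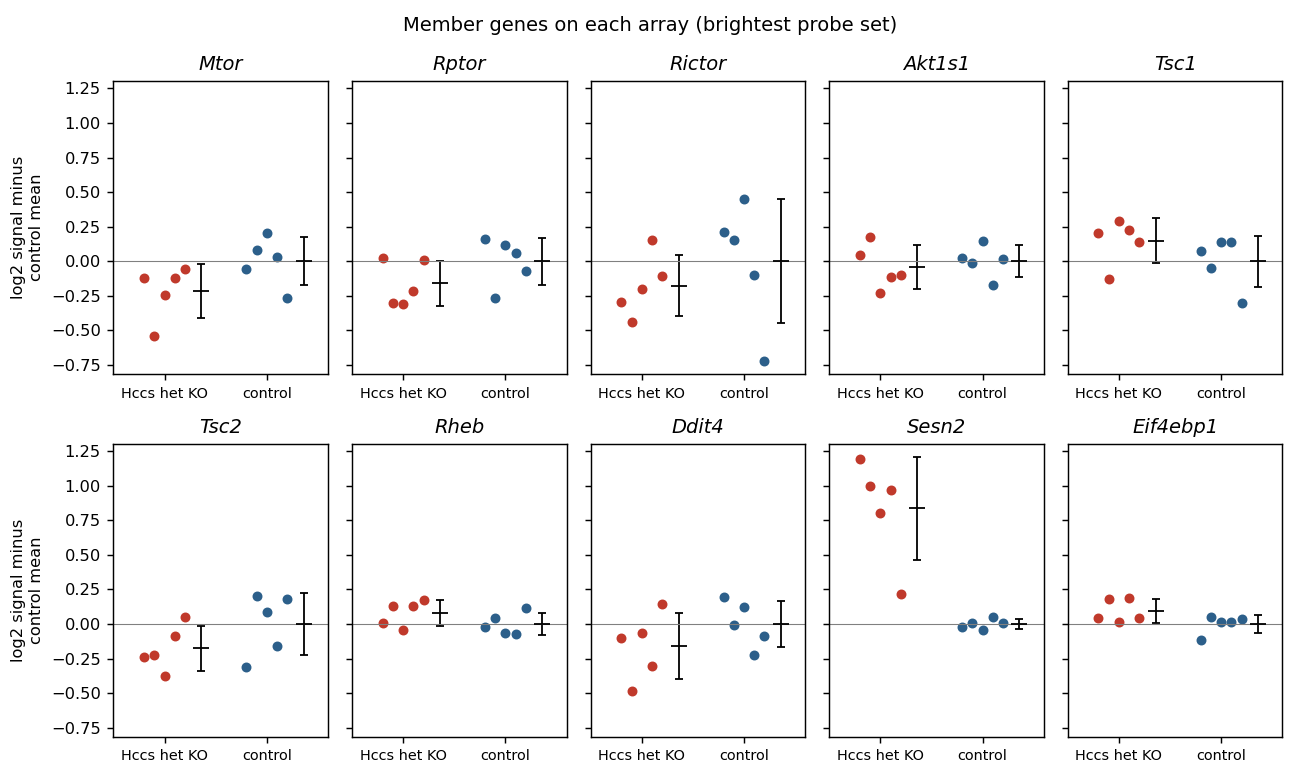
Log2 signal minus the control mean (vertical axis) of the brightest probe set of each of the 10 genes, 1 point per pool in order of pool number, knockout pools left of control pools, with the mean and SD of each group (n = 5) beside its points. The groups separate in the Sesn2 panel, where the signals were 4.82 to 5.79 in knockout pools and 4.56 to 4.65 in control pools, and overlap in the other 9.

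The kinase and its scaffolds had lower means in knockout hearts, and none of the 3 passed the test. Mtor read 8.82, 8.40, 8.70, 8.82 and 8.89 in knockout pools 1 to 5, against 8.88, 9.02, 9.14, 8.97 and 8.68 in control pools 1 to 5. Knockout pool 2 was lowest and control pool 3 highest, and the groups overlapped. The log2 change of -0.21 had a 95% interval of -0.46 to 0.03 (limma adjusted p = 0.295). Rptor read 7.91, 7.59, 7.58, 7.68 and 7.90 in knockout pools, against 8.05, 7.62, 8.01, 7.95 and 7.82 in control pools. Its change was -0.16, with an interval of -0.38 to 0.06 (limma adjusted p = 0.386). Rictor spread the most, with 7.34, 7.19, 7.43, 7.79 and 7.53 in knockout pools, against 7.84, 7.79, 8.08, 7.54 and 6.91 in control pools. Control pool 5 was the lowest of all 10, and the change of -0.18 had the widest interval among the members, -0.63 to 0.28 (limma adjusted p = 0.643).

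PRAS40, the inhibitor bound to mTORC1, was evenly expressed. Akt1s1 read 10.26, 10.39, 9.98, 10.10 and 10.11 in knockout pools, against 10.24, 10.19, 10.36, 10.04 and 10.22 in control pools. The groups overlapped almost entirely, and the change of -0.042 had an interval of -0.23 to 0.14 (limma adjusted p = 0.794).

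The Tsc1, Tsc2 and Rheb axis showed small changes of mixed sign. Tsc1, the stabilising subunit, read 8.33, 7.99, 8.41, 8.35 and 8.26 in knockout pools, against 8.19, 8.07, 8.26, 8.26 and 7.82 in control pools. The change was 0.15, with an interval of -0.08 to 0.38 (limma adjusted p = 0.440). Tsc2, the subunit that acts on Rheb, read 8.59, 8.61, 8.46, 8.75 and 8.88 in knockout pools, against 8.53, 9.03, 8.92, 8.68 and 9.01 in control pools. Its change was -0.18, with an interval of -0.43 to 0.08 (limma adjusted p = 0.407). Both genes overlapped between the groups. Rheb, the activator, had the brightest probe set of the 10 genes, with 13.13, 13.25, 13.08, 13.25 and 13.30 in knockout pools, against 13.10, 13.17, 13.05, 13.05 and 13.24 in control pools. The spread between pools was small, and the interval of the change, -0.04 to 0.20 around 0.080, held it within 1.15-fold (limma adjusted p = 0.428).

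Eif4ebp1 encodes 4E-BP1, a repressor that mTORC1 inactivates, and its gene is a known ATF4 target. Its brightest probe set read 12.88, 13.02, 12.85, 13.03 and 12.88 in knockout pools, against 12.72, 12.89, 12.85, 12.85 and 12.87 in control pools. The groups overlapped, and the change of 0.094 had an interval of -0.02 to 0.20 (limma adjusted p = 0.310). The suffix of this probe set marks probes that may also match other transcripts. The other probe sets of Eif4ebp1 gave -0.076 and -0.15 (limma adjusted p = 0.588 and 0.409 over all probe sets), so the sign hung on the probe set.

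Of the 10 genes 1 passed the test, Sesn2, which was higher, and 0 were lower. The background over all genes was 2.58% called, with 1.63% higher and 0.945% lower, so a single call among 10 genes says little about the set. At an unadjusted limma p under 0.05 the count was again 1 of 10, against 20.6% of all genes. The knockout and control pools did not overlap for 1 of 10 genes, against 5.79% of all genes. In sign, 4 changes were positive and 6 negative, with a median of -0.10 for the members against 0.025 for all genes. The median size of the change without its sign was 0.16 for the members and 0.082 for all genes. By probe set it was 0.094 for the members and 0.075 for all. Every member but Sesn2 lay above the median level of all genes, and sizes were not compared at matched levels.

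Sesn2 was also set against each of the other 9 genes, a comparison chosen after its values were seen and one in which all 9 tests share the Sesn2 values. Within each array the level of the other gene was subtracted from that of Sesn2, and the knockout and control pools were compared. The differences of log2 change ran from 0.69 against Tsc1 to 1.05 against Mtor. The exact permutation p was 0.00794 against Mtor, Akt1s1 and Eif4ebp1, 0.0159 against Rptor, Rictor, Tsc1 and Rheb, and 0.0238 against Tsc2 and Ddit4. Adjusted over the 9 comparisons, the exact p-values were 0.0204 or 0.0238. Sesn2 was the only member whose groups did not overlap, and the adjustment does not correct for choosing it on that ground. These p-values therefore add no support to the difference already seen in Sesn2.

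Taken by probe set, 2 of 25 were called, both of Sesn2, against a background of 1.14% of 45037, and 5 of 25 had an unadjusted limma p under 0.05, against 20%. Changes were positive for 13 and negative for 12. The mean of 16 of the 25 lay above the middle probe set of every array, and that of the other 9 did not. In 1 of these 16, a second probe set of Rptor, the mean was that high only through the knockout pools. Beside the brightest probe sets, those above the middle were 1 of Rptor, 1 of Rictor, 1 of Akt1s1, 1 of Sesn2 and 2 of Eif4ebp1.

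**Figure D3:**
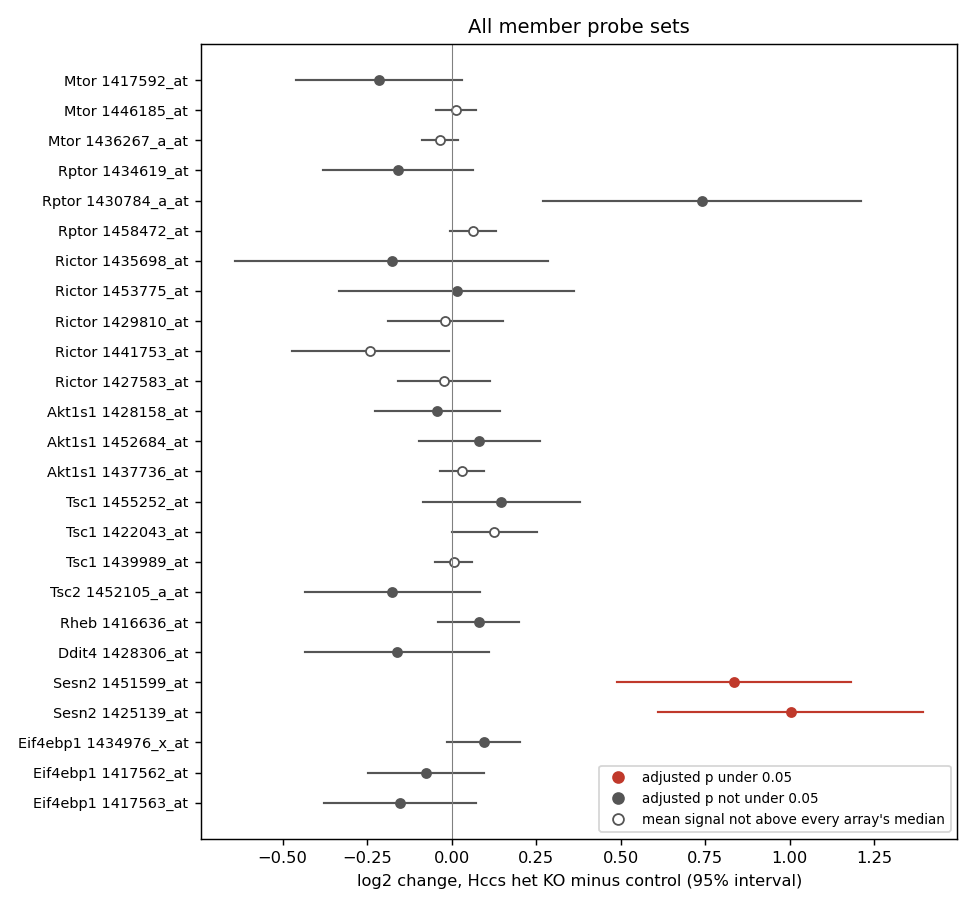
Log2 change (horizontal axis, knockout minus control) of each of the 25 probe sets with its 95% interval, grouped by gene, with called probe sets in red and those not above the middle of every array as open circles. The Sesn2 probe sets lie at 0.84 and 1.0. An Rptor probe set whose control mean is below the middle of every array lies at 0.74 with a wide interval. The rest scatter around 0.

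In control hearts that second probe set of Rptor lay below Uty and the middle of every array, though above Kdm5d and Eif2s3y (2.67 and 2.86). Its mean was 4.32 in knockout pools and 3.57 in control pools, where the array middles lay at 3.65 or more and Uty at 3.66. It read 3.60, 4.08, 4.40, 4.64 and 4.86 in knockout pools 1 to 5, against 3.65, 3.47, 3.50, 3.71 and 3.54 in control pools 1 to 5. Knockout pool 1 lay among the controls and the other 4 above them. The change of 0.74 (SE 0.21) was not called (limma, adjusted p = 0.115 in the table of probe sets). It passed without knockout pool 1, at 0.92 with a limma adjusted p of 0.0145, and with array weights, at 0.82 with 0.0494. How much of the control level comes from the transcript is not known here, so these sizes are those of the deposited values and not of the transcript. The sources used here do not say which transcript each probe set reads. The remaining probe sets with an unadjusted limma p under 0.05 were 1 of Rictor at -0.24 (adjusted p = 0.237) and 1 of Tsc1 at 0.13 (adjusted p = 0.246).

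The genes around the members were read from lists chosen with earlier results of these data known. Over all genes 1.63% were called higher, 0.945% lower, and 20.6% had an unadjusted limma p under 0.05. Among 8 partner subunits of mTORC1 and mTORC2, 0 were called by limma and 2 had an unadjusted p under 0.05, with a median change of 0.062. Mapkap1, the mTORC2 subunit Sin1 and the brightest of them, changed by 0.054 (SE 0.032; limma adjusted p = 0.356). Among 12 Rag, Ragulator and folliculin genes, which bring mTORC1 to the lysosome, 0 were called and 2 had an unadjusted p under 0.05, with a median of 0.025. Lamtor5, the brightest of that list, changed by 0.24 (SE 0.078, limma adjusted p = 0.132). Among 10 genes of GATOR1, GATOR2 and KICSTOR, the amino acid relay that Sestrin2 acts on, 0 were called and 0 had an unadjusted p under 0.05, with a median of 0.019. The background of 2.58% called makes 0 of 10 no result about this relay, and with the mean of each gene's probe sets 1 of the 10 rose. Sec13, a GATOR2 subunit shared with the secretory coat, read 11.52 in knockout hearts and 11.53 in control hearts.

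Among 9 other genes, mostly brakes fed by amino acids or stress, 1 rose and 0 fell, with a median of 0.13. An unadjusted limma p under 0.05 was found for 4 of the 9, against 20.6% of all genes. The list also holds Rhebl1, a relative of the activator Rheb and not a brake. The gene that rose was Trib3, a pseudokinase that binds Akt. It read 8.38, 8.75, 7.92, 8.56 and 8.08 in knockout pools, against 4.95, 5.93, 5.88, 5.95 and 6.67 in control pools. The groups lay more than 1 log2 unit apart, and the change of 2.46 (SE 0.29; limma adjusted p = 0.00951) stayed called with each array left out. Bmt2 (Samtor), the methionine-side sensor, had a change of 0.30 (SE 0.075) that was not called (limma adjusted p = 0.0661).

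The relatives of Sesn2 did not pass, and both were named after their values were seen. Sesn1 read 9.93, 10.50, 10.63, 10.74 and 10.50 in knockout pools, against 9.93, 10.01, 9.95, 10.16 and 10.10 in control pools. Knockout pool 1 sat with the controls and the other 4 above them, and the change was 0.43 (SE 0.14; limma adjusted p = 0.125). Sesn3 had a change of -0.28 (limma adjusted p = 0.264). Sesn1 and Sesn3 are brighter here than Sesn2, but different probe sets give no order of transcript amounts.

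Upstream of Tsc2 lie the insulin, PI3K, Akt and AMPK inputs. Of 15 such genes 0 rose and 2 fell, with 12 negative changes and a median of -0.14. An unadjusted limma p under 0.05 was found for 6 of the 15, against 20.6% of all genes. Pik3r1, the regulatory subunit of PI3K, read 7.90 in knockout hearts and 8.42 in control hearts. Its change was -0.52 (SE 0.082), with a limma adjusted p of 0.0208. Irs1, the insulin receptor substrate, changed by -0.27 (SE 0.059; limma adjusted p = 0.0481). Leaving out arrays removed these calls: Irs1 kept its call in 2 of 10 fits, with a limma adjusted p of up to 0.107, and 0.104 without control pool 3. Pik3r1 kept it in 7 of 10, and its limma adjusted p was 0.0518, 0.0537 and 0.0504 without knockout pool 2, knockout pool 4 and control pool 1. Pik3r1 also depended on the probe set: its change was -0.34 (limma adjusted p = 0.167) as the mean of its probe sets and -0.31 (0.508) by the most variable one. By either choice 0 genes of this list fell. Akt1, the brightest not called, had a change of -0.14 (limma adjusted p = 0.463). With 1 array left out, the count of falls in this list ran from 0 to 4.

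Of 15 substrates and effectors of the mTOR kinases, 1 rose and 1 fell, with a median of -0.062. An unadjusted limma p under 0.05 was found for 5 of the 15, against 20.6% of all genes. Sgk1, a kinase switched on by mTORC2, was higher, at 10.40 in knockout hearts and 9.80 in control hearts (log2 change 0.60, SE 0.078; limma adjusted p = 0.0137), and kept its call with each array left out, though not without both arrays numbered 3 (limma adjusted p = 0.0714). Grb10, an adaptor that mTORC1 stabilises, was lower, at 14.20 in knockout hearts and 14.48 in control hearts (log2 change -0.28, SE 0.051; limma adjusted p = 0.0289). That call held in 2 of 10 fits with 1 array left out, not in the one without control pool 3 (limma adjusted p = 0.0511), and another probe set of Grb10 had the opposite sign. Eif4e, the cap-binding partner of 4E-BP1, had a change of 0.093 (limma adjusted p = 0.598).

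Lists of targets of ATF4, p53, HIF1 and the glucocorticoid receptor were read in the same way, and were not tested against each other. They too were chosen with earlier results of these data known. Of 14 ATF4 factors and targets 11 rose and 0 fell, against 1.63% higher and 0.945% lower over all genes. Their median was 0.78, against 0.025 over all genes, and 12 of the 14 had an unadjusted limma p under 0.05. The members and Trib3 were kept out of this list, and the count depends on that placement. Eif4ebp1, given above as an ATF4 target, was not called (log2 change 0.094, limma adjusted p = 0.310), and neither was Ddit4. Sesn2 and Trib3 were called higher. Asns, the asparagine synthetase, was 2.0 higher on the log2 scale (SE 0.091; limma adjusted p = 2.34e-05). Mthfd2 and Phgdh, enzymes of mitochondrial folate use and serine synthesis, were higher by 1.5 (SE 0.12) and 0.87 (SE 0.062; limma adjusted p = 0.000965 and 0.000552). The brightest ATF4 gene not called was Vldlr, a lipoprotein receptor, at 0.23 (limma adjusted p = 0.307). Of 11 p53 targets 6 rose and 0 fell, with a median of 0.46, and 7 had an unadjusted limma p under 0.05. Eda2r, a death receptor relative, rose by 1.45 (SE 0.12), Ccng1, a cyclin, by 0.59 (SE 0.067) and Phlda3, an inhibitor of Akt, by 0.34 (SE 0.051), with limma adjusted p-values of 0.00120, 0.00849 and 0.0197. Plk2, a kinase and the brightest p53 target not called, had a change of 0.0075.

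Of 10 HIF1 targets 0 rose and 1 fell, with a median of -0.18. Of these, 8 changes were negative, and 5 had an unadjusted limma p under 0.05, against 20.6% of all genes. Of 8 glucocorticoid-induced genes 0 rose and 1 fell, with a median of -0.066, and 2 had an unadjusted limma p under 0.05. Sgk1, the serum and glucocorticoid regulated kinase 1, was placed among the mTOR kinase effectors and not in this list. It rose by 0.60, so the count of rises here depends on that placement. The HIF1 target that fell was Egln3, an oxygen-sensing prolyl hydroxylase, at -0.43 (SE 0.084; limma adjusted p = 0.0349), a call kept in 3 of 10 fits with 1 array left out and lost without control pool 3 (limma adjusted p = 0.0770). The glucocorticoid-induced gene was Per1, a clock repressor, at -0.81 (SE 0.17; limma adjusted p = 0.0428), a call kept in 1 of 10 and lost without control pool 3 (limma adjusted p = 0.0938). Per1 read 3.68 in knockout hearts, at the level of the middle probe set. The glucose transporter Slc2a1 had a change of -0.0027, and Nfkbia, an inhibitor of NF-kappa B, one of 0.062. With 1 array left out the count of rises ran from 8 to 12 for ATF4 and from 4 to 6 for p53. It was 10 and 5 without control pool 3, and 7 and 3 with both arrays numbered 3 left out.

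**Figure D4:**
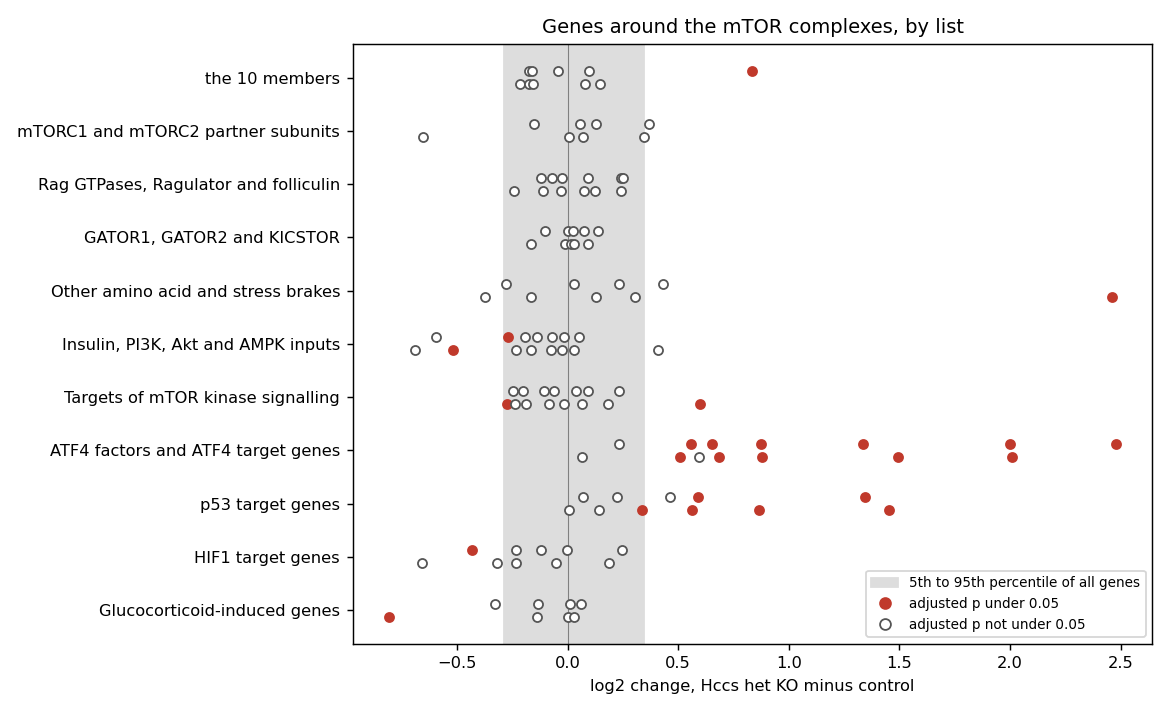
Log2 change (horizontal axis, knockout minus control) of the 10 members (first line) and of every measured gene in 10 lists around them, 1 line per list, with called genes filled, the others open, and the 5th to 95th percentile of all genes (-0.29 to 0.35) shaded. Most of the ATF4 genes and several of the p53 targets are filled and lie right of the shading, while most genes of the other lists lie within it.

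The genes whose levels followed a member most closely over the 10 arrays were sought among those brighter than the median gene, by Pearson correlation, as a description with no test, since all genes share the same arrays. For Mtor they were Ncoa1 (r = 0.967), Gprasp1 (0.958), Utrn (0.954), Mrs2 (0.951) and Baz2a (0.951). For Ddit4 they were Ralgapb (0.960), Srgap2 (0.937), Plekhg2 (0.922), Sf3b3 (0.911) and Numa1 (0.902). None of these 10 genes was called. For Sesn2 they were Rhbdd1 (0.969), Pgap2 (0.961), Lactb2 (0.940), Mthfd2 (0.928) and Pcsk5 (0.923). Of the Sesn2 group Lactb2, Mthfd2 and Pcsk5 were called, at 0.53, 1.5 and 0.56 (limma adjusted p = 0.0113, 0.000965 and 0.0156). With the genotype means removed these 3 correlated with Sesn2 at 0.729, 0.711 and 0.634, and Rhbdd1 and Pgap2 at 0.925 and 0.883. The 5 genes near Mtor were then at 0.931 to 0.954.

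Markers of the tissue moved with genotype as well. Of 10 cardiomyocyte genes 4 fell (Myh7, Tnni1, Myl2 and Nkx2-5) and 0 rose, against 0.945% lower and 1.63% higher over all genes. All 10 changes were negative, and 9 had an unadjusted limma p under 0.05. The count of falls ran from 1 to 4 with 1 array left out. It was 1 without control pool 3, 0 without both arrays numbered 3 and 2 with each array centred on its median. The mean log2 level of the list was 13.99 to 14.22 in knockout pools and 14.33 to 14.59 in control pools, without overlap. All 10 lay above the middle probe set of every array. None of the endothelial (7), epicardial (6), smooth muscle (4), fibroblast (6), macrophage (6), erythroid (5) and neural (2) markers measured was called by limma, 7 of these 36 had an unadjusted p under 0.05 against 20.6% of all genes, and the mean levels of these lists overlapped between the groups. The part of the lower cardiomyocyte markers in the values of Sesn2 and the other members was not tested.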

How the data were processed

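RNA of whole hearts was measured on Affymetrix arrays, 1 array per pool, in 5 knockout and 5 control pools. The authors summarised the probes with RMA and worked in Partek, per the submitters' processing notes, and deposited log2 signals, 1 per probe set, whose distributions are close between arrays (medians of 3.65 to 3.76) though not identical. Neither versions nor the background option are stated, so how strongly dim signals are compressed is unknown, and any shift in total RNA between hearts is hidden. Of 45101 probe sets 64 are array controls, and 34945 carry 1 symbol in the platform annotation. The brightest of these stood for each of 18193 genes.

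Genotypes came from the sample titles. Log2 changes (knockout minus control) were fitted with limma 3.58.1 in R 4.3.3, with genotype as the only term, over all 18193 genes and again over all 45037 probe sets that are not controls. P-values were two-sided and adjusted over each whole table by the Benjamini-Hochberg method, and an adjusted p under 0.05 was called. Intervals are 95% intervals of the moderated fit. Single values were compared by exact two-sided permutation over all 252 ways to assign 5 of the 10 arrays. The fit was tested on simulated data. The number of arrays limits the precision. Python 3.11.15 with matplotlib 3.10.9 drew the plots.

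The 10 genes and the gene lists were chosen with earlier results of these data known. Named are the 10 genes with all their probe sets, Hccs, in each list up to 3 called genes with the smallest p and the brightest gene that was not called, and the 5 genes whose levels correlated best with Mtor, Ddit4 and Sesn2. Uty, Kdm5d, Eif2s3y, Tubb3, Sesn1, Sesn3, Rhebl1, Deptor, Prkaa1, Prkaa2 and the called cardiomyocyte markers lie outside this rule. They were picked after their values were seen. List genes without a probe set of 1 symbol were not analysed here. Symbols were checked by Entrez number against RefSeq genes on GRCm38.p6, which held 34741 of the 34945 probe sets and changed 0 symbols.

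The labels number the pools 1 to 5 in both genotypes. The correlation of deviations from the genotype means between pools of the same number ran from -0.091 to 0.077, and only 1 of 5 knockout pools correlated best with the control pool of its number, so the numbers were not treated as pairs. Alternatives tried were a replicate block, quantile or median scaling of the arrays, level filters at the lower quartile or the median, averaging a gene's probe sets or taking the most variable, a trended robust eBayes, array weights, thresholds of 0.1 and 0.01, and leaving out each array, or both arrays numbered 3. For genes of the lists these were added after seeing the data.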

Additional observations from a re-analysis of the deposited data

Results flagged for a closer look

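Of 52 sets of 5 pools examined for the members and Hccs, 5 held 1 pool far from the other 4 by Dixon's test, which chance gives in about 1 set of 20. Control pool 2 was highest on 2 Rictor probe sets, at 5.40 against 4.77 for the next pool and at 3.28 against 2.94. Control pool 3 was highest on another, the dimmest, at 2.40 against 2.12. Control pool 1 was lowest on the brightest Eif4ebp1 probe set, at 12.72 against 12.85 for the next. Control pool 5 was highest on the dimmest Eif4ebp1 probe set, at 6.28 against 6.02. Each of the 5 was in the control group, and none concerned Sesn2.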

How the results depend on the processing

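The direction of Sesn2 held in 21 alternatives, with a log2 change of 0.75 to 1.0, and its call held in 11. The replicate block, the filter at the lower quartile, the trended robust eBayes and both thresholds cannot alter the log2 change. A call at 0.05 also holds at 0.1 by design. The limma adjusted p of Sesn2 was 0.0778 with the replicate block and 0.122 without the arrays numbered 3, and a filter at the median level removed the gene. Its count of 1 called member became 0 with the replicate block, with that filter, without the arrays numbered 3 and at a threshold of 0.01, and ran from 0 to 1 with each array left out. The 2 called member probe sets became 0 with the replicate block, without the arrays numbered 3 and at 0.01, and ran from 0 to 3 with each array left out. Over all genes the 469 calls became 36 with the replicate block, 759 with the filter at the median, 945 with array weights, 30 without the arrays numbered 3, 1160 at a threshold of 0.1 and 14 at 0.01, and ran from 105 to 1042 with each array left out. The 513 calls over all probe sets became 29, 865, 1756, 44, 1782 and 29 under the same settings, and 66 to 1871. Under the replicate block the limma adjusted p was 0.0520 for Trib3, 0.0546 for Sgk1, 0.0729 for Pik3r1, 0.0628 for Irs1, 0.0861 for Grb10, 0.0735 for Phlda3 and 0.101 for Per1. The count of rises was then 5 of 14 for ATF4 and 2 of 11 for p53, and 0 of 10 cardiomyocyte markers fell.

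Signs turned for members that were not called. Akt1s1 was at 0.0414 without the arrays numbered 3, 0.0234 as the mean of its probe sets, 0.0816 by the most variable one, and -0.0975 to 0.0041 with each array left out. Rptor was at 0.215 and 0.742, and Eif4ebp1 at -0.0445 and -0.152, by the mean and the most variable probe set. Grb10 was at 0.034 by its most variable probe set. Quantile normalization turned a dim Tsc1 probe set to -0.0166 and a dim Mtor one to -0.0025. Among dim Rictor probe sets, 1 stood at 0.0321 with array weights and between -0.0461 and 0.0542 with each array left out. The next stood at 0.0404 without the arrays numbered 3 and between -0.0461 and 0.0385 with each array left out. The last stood at -0.0347 without the arrays numbered 3 and between -0.052 and 0.167 with each array left out, and the Tsc1 one between -0.00143 and 0.0200. No turned value passed the threshold, and the cause was not tested.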

Other observations

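Deptor, a subunit that inhibits mTOR in both complexes, was named after its values were seen. It read 4.24 in knockout hearts and 4.89 in control hearts (log2 change -0.65, SE 0.21, limma adjusted p = 0.135). Its groups did not overlap, as for 5.79% of all genes, but the highest knockout pool read 4.54 and the lowest control pool 4.55. Of the Deptor probe sets 2 had positive changes and 4 negative ones. The catalytic AMPK subunits, which restrain mTORC1 through Tsc2 and Raptor, were chosen in the same way. Prkaa1 had a change of 0.41 (SE 0.13, limma adjusted p = 0.123) and Prkaa2 one of -0.60 (SE 0.15, limma adjusted p = 0.0655). Of the Prkaa2 probe sets 1 had a positive change and 2 had negative ones.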
